A study of Rattus norvegicus with 3 samples.

Results

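The genes described here build and run the mitotic spindle. They encode the kinetochore and its spindle checkpoint, the cyclins and kinases that drive mitosis, the anaphase-promoting complex with its regulators, separase and securin, and the kinesin motors. They were chosen by name: a probe belonged if its gene name on the array began with a kinetochore, checkpoint, mitotic kinase, anaphase-promoting complex or Kif name on a fixed pattern. This found 95 of 41012 gene probes, for 69 of 35561 gene names. The pattern itself uses no measured value. Of the 69 genes, 60 were tested, through 84 probes, because at least 1 probe stood well above background in iPS F65 or in mix1 on every array. The other 9 were Ccna1, Kif12, Kif1a, Kif21b, Kif26a, Kif27, Kif2b, Kif5a and Kif6.

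The study compared 3 samples of rat iPS F65, an induced pluripotent stem cell line (adult cells returned to a state like that of the early embryo by reprogramming), with mix1, a blend of cultured bone marrow cells and ear fibroblasts in primary culture, both from rat, that stands for adult cells. Neither side was treated. The iPS F65 cells were kept on a layer of irradiated mouse embryonic fibroblasts in medium with fetal bovine serum and serum replacer, and the adult cells were cultured in medium with fetal bovine serum and no feeder layer is named for them. Each array held total RNA of 1 iPS F65 sample in the green dye Cy3 and of mix1 in the red dye Cy5. The proportions of the blend, whether the feeder cells were removed before RNA was taken, and whether the 3 samples came from separate cultures are not given in the sources used here. A p-value here reflects how far the 3 samples differ among themselves, and that difference may be no more than technical. The dyes were never swapped, so dye and group cannot be told apart, and mix1 is 1 control sample whose own spread is not in any test. All 3 arrays lay on 1 slide read in 1 scan.

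Chromosomes attach to the spindle through the kinetochore, a stack of proteins on the centromere. Until every kinetochore is attached, the spindle checkpoint holds back the anaphase-promoting complex, a ubiquitin ligase. Once freed by its activator Cdc20, the complex marks cyclin B and securin for destruction, separase is released and the sister chromatids part. Kinesins are motors that walk along or dismantle microtubules. Some work only in the spindle, while others carry cargo in cells that do not divide. Many genes of mitosis are switched on together late in the cell cycle, so dividing cells hold more of their RNA than resting cells.

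On each array 57.1 to 61.2% of gene spots were well above background in iPS F65 and 58.3 to 62.1% in mix1, and no gene spot was saturated. Of 21805 genes tested, 6731 (30.9%) were higher and 5340 (24.5%) lower in iPS F65 (limma, called at 2-fold or more with an adjusted p under 0.05). The adjusted p alone passed for 95.5% of the genes, so what separated called from uncalled genes was mostly the 2-fold limit. The share of all genes whose signals in iPS F65 and mix1 did not overlap was not counted. Non-overlap is given below as a description of single genes, not as a result that sets them apart. The ratios are those of the scanner software's processed signals, as log2 of iPS F65 over mix1. Their median over all genes tested was 0.25, and after normexp background correction with loess dye scaling it was -0.08. With loess, 18.3% of all genes were higher and 26.1% lower, and with the median of each array set to 0, 24.9% were higher and 28.1% lower. For this reason the value after normexp and loess together, written as after loess, stands beside the main counts that follow.

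The markers of the labelled cells were read first. Sox2 averaged 3976 in iPS F65 and 456 in mix1 (processed signal), and Pou5f1 averaged 304 in iPS F65 and 49.0 in mix1, where it was not well above background. No probe carried the names Nanog, Zfp42, Dppa5, Utf1 or Tdgf1, and Lin28a, at a ratio of -0.17, was not called. All 10 fibroblast markers were lower in iPS F65. Their summed signal was 21433 to 26215 per array in iPS F65 and 1613650 to 2044910 in mix1. Postn and Thy1 were not well above background in iPS F65. Of 9 tested myeloid markers, 8 were lower in iPS F65, with sums of 3159 to 3986 in iPS F65 and 225951 to 264270 in mix1. The part that these cell types, or RNA of the mouse feeder cells, may have in the ratios below was not tested.

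Of the 60 spindle and kinesin genes tested, 29 (48.3%) were higher in iPS F65, 4 were lower and 27 were not called. Beside these stand the 30.9% higher and 24.5% lower of all genes tested. The median ratio was 0.98, which is 0.73 above the median of all genes. The 4 lower genes were Cenpb, Kif1c, Kif3c and Pttg1ip. Kif14, among the higher genes, passed the filter only through iPS F65. With probes above background in both channels, 28 were higher and 4 lower, against 4988 and 3234 of all genes. After loess 16 (26.7%) were higher and 5 lower, and the median was 0.55, which is 0.63 above the all-gene median on that scale. The 16 were all among the 29, and the same 4 genes were lower, joined by Anapc2. A ratio compares the RNA of all cells of a sample together, so fewer cells of a kind and less RNA per cell cannot be told apart. On all 3 arrays 59 of the 60 genes kept 1 sign, the exception being Mad2l1bp. The median SD of a gene's ratio over the arrays was 0.024, and all but Kif14 and Kif5c were clear of background in Cy3 and in Cy5 on every array.

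**Figure D1:**
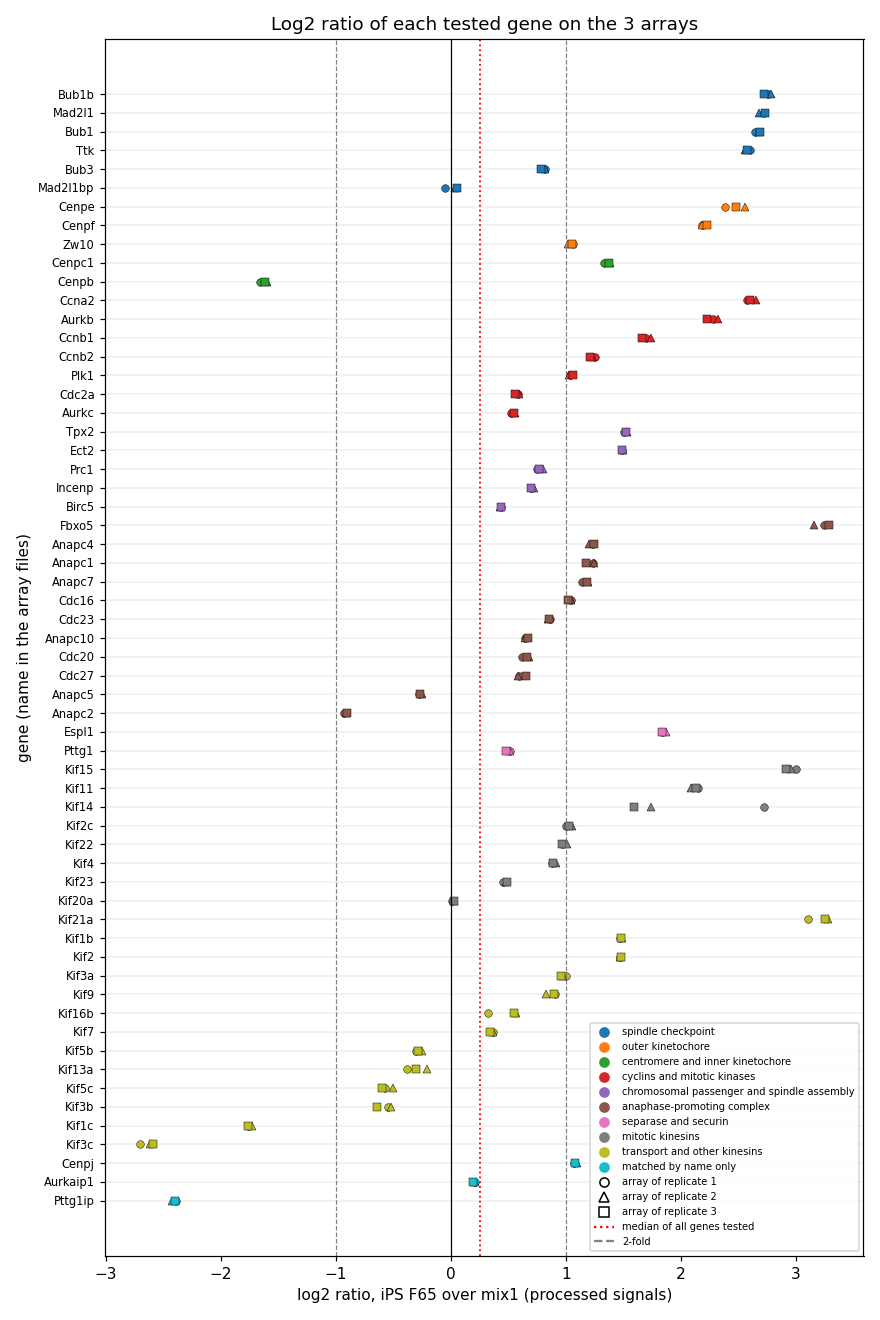
Log2 ratio of iPS F65 over mix1 on each of the 3 arrays (x axis, processed signals) for the 60 tested genes (y axis), coloured by role, with 1 symbol shape per array. The symbols of most genes lie on top of each other, those of Kif14 are spread out, and the checkpoint genes Bub1, Bub1b, Mad2l1 and Ttk sit together between 2.56 and 2.78.

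Promoters of mitotic genes in mammals often hold a CCAAT box and a cell cycle homology region with the letters TTTGAA close to the start of transcription. RefSeq windows of assembly GRCr8, running from 250 bases before to 50 bases after a gene's start, were searched for both on either strand (CCAAT reads ATTGG and TTTGAA reads TTCAAA on the other one). The letters of the motifs cannot overlap in a way that makes 1 site count for both. A window was found for 55 of the 69 genes. CCAAT was in 32 of them (58.2%), against 37.7% of 27457 promoters, TTTGAA in 20 (36.4%), against 18.1%, and both in 15 (27.3%), against 7.25%. All 3 windows of the chromosomal passenger and spindle assembly genes and both of separase and securin held the pair, against 1 of 6 of the spindle checkpoint and none of the 2 of the centromere. CCAAT was in 2 of the 6 checkpoint windows (33.3%). None of the 16 windows of transport kinesins held TTTGAA, and 4 held CCAAT. The pair stood in 7 of 22 windows of genes higher in iPS F65, in 8 of 24 of genes not called and in none of the 4 of genes lower. A match is a string of letters, and nothing here measures whether a factor binds it.

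Of 6 spindle checkpoint genes 4 were higher, against 30.9% of all genes. Bub1, Bub1b, Mad2l1 and Ttk had ratios of 2.58 to 2.75 on their brightest probes, and all 4 remained called after loess, at 2.24 to 2.46. Bub1, a kinase that brings the other checkpoint proteins to the kinetochore, had processed signals of 54870, 67351 and 65728 in iPS F65 and of 8804, 10527 and 10223 in mix1 on the arrays of replicates 1, 2 and 3. Every iPS F65 value lay above every mix1 value. It was 6.35-fold higher, at 2.67 ± 0.02 (SD, n = 3, limma adjusted p = 5.93e-06), and its probe lies at chr3:115230208-115230267 of rn3, the rat build named in the file headers. For Bub1b, which encodes BubR1, the part of the checkpoint complex that blocks Cdc20, the signals were 41793, 51465 and 47786 in iPS F65 and 6177, 7473 and 7252 in mix1. Mad2l1 encodes Mad2, which binds Cdc20 directly. It read 25046, 29246 and 29816 in iPS F65 and 3789, 4562 and 4493 in mix1. The groups did not overlap for either gene, and the ratios were 2.75 ± 0.03 for Bub1b and 2.71 ± 0.03 for Mad2l1.

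Ttk, also called Mps1, is the kinase at the top of the checkpoint. It read 35477, 39220 and 39146 in iPS F65 and 5846, 6661 and 6568 in mix1, a 5.97-fold difference with no overlap (2.58 ± 0.02, limma adjusted p = 5.92e-06). Its promoter is shown because it carries both motifs close to the start: the capitals mark CCAAT, beginning 67 and 30 bases before the start, and TTCAAA, the other strand of TTTGAA, just after it (chr8:93634389-93634688 of GRCr8, plus strand).
Ttk: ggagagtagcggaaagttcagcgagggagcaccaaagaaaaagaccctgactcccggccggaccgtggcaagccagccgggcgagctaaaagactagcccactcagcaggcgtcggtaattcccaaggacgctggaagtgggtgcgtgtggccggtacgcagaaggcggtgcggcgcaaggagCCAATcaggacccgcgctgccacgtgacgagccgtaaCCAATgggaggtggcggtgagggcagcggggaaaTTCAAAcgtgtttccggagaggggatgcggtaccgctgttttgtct
The window of Bub1, whose ratio was close to that of Ttk, held neither motif. The other checkpoint genes were not called. Bub3, the partner that docks Bub1 and BubR1, had a ratio of 0.81 ± 0.02. Mad2l1bp encodes p31comet, which binds active Mad2. Its ratios were -0.05, 0.03 and 0.05 on the 3 arrays, so the signals of the channels did not separate (limma adjusted p = 0.674), and after loess the mean was -0.42.

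**Figure D2:**
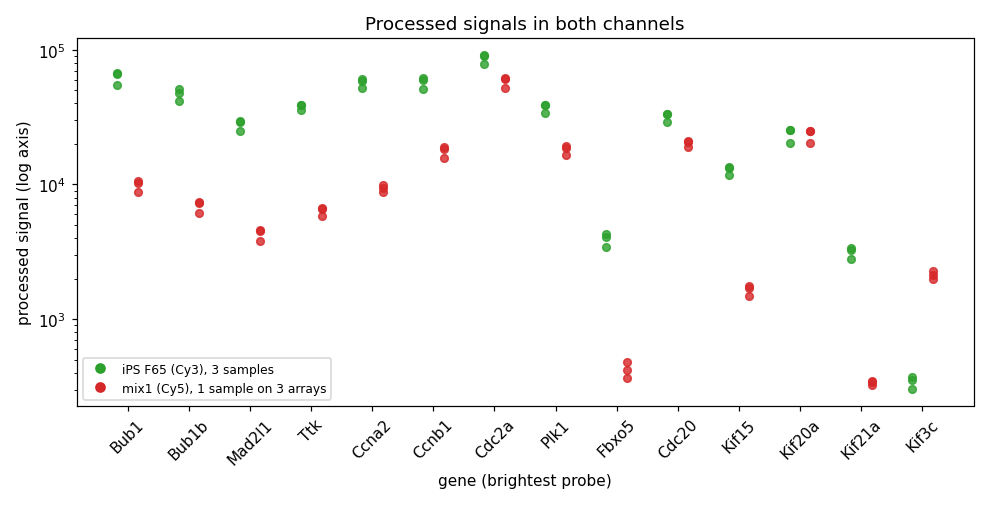
Processed signal (log axis) of the brightest probe of 14 genes in iPS F65 (Cy3, 3 samples) and mix1 (Cy5, 1 sample on 3 arrays). For Bub1, Bub1b, Mad2l1 and Ttk the groups stand far apart, for Kif20a they lie at the same height, and for Kif3c mix1 is higher.

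Of the outer kinetochore, the 3 genes with a matching name were higher, against 30.9% of all genes, with a median ratio of 2.19. Others filed under older names, described further on, were not all called. Cenpe encodes a motor that is a kinesin by family and carries chromosomes toward the spindle equator. It read 1812, 2211 and 2156 in iPS F65 and 347, 377 and 388 in mix1, and was 5.54-fold higher (2.47 ± 0.08, limma adjusted p = 1.73e-05). Cenpf, a large protein of the outer plate and the nuclear matrix, read 3102, 3636 and 3637 in iPS F65 and 685, 803 and 777 in mix1 (2.19 ± 0.03). Neither gene overlapped between the groups, and after loess they stood at 1.82 and 1.64. Zw10, part of the complex that brings dynein to the kinetochore, was at the 2-fold limit. It read 1162, 1375 and 1375 in iPS F65 and 557, 678 and 663 in mix1, at 1.04 ± 0.02, and at 0.53 after loess its call was lost.

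Only 2 genes of the centromere itself carried a matching name, and they lay on opposite sides of 0. Cenpc1, now Cenpc, links centromeric chromatin to the outer plate. It read 3997, 4686 and 4832 in iPS F65 and 1586, 1799 and 1861 in mix1, 2.57-fold higher (1.36 ± 0.03). After loess this probe was not called (0.88), while the dimmer probe of Cenpc1, at 1.94, kept its call (1.39). Cenpb, which binds a short box in centromeric repeats, was the reverse, with 2719, 3218 and 3013 in iPS F65 and 8612, 9769 and 9257 in mix1. It was 3.09-fold lower (-1.63 ± 0.03, limma adjusted p = 1.02e-05), and -2.02 after loess.

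Among the cyclins and mitotic kinases 5 of 7 tested genes were higher, against 30.9% of all genes, and the best known of them, Cdk1, was not. The median was 1.23, and 3 of the 7 were higher after loess, against 18.3% of all genes. Ccna2, the cyclin A of dividing somatic cells, read 52233, 58753 and 60273 in iPS F65 and 8796, 9373 and 9934 in mix1. Ccnb1, the main cyclin B of mitosis, read 51131, 61307 and 59403 in iPS F65 and 15788, 18330 and 18815 in mix1. Both separated the groups on every array, by 6.09-fold for Ccna2 (2.61 ± 0.04) and 3.25-fold for Ccnb1 (1.70 ± 0.04), with loess values of 2.34 and 1.50. Ccnb2, another cyclin B, read 13250, 15361 and 15373 in iPS F65 and 5564, 6549 and 6635 in mix1. At 1.23 ± 0.02 it was called, and at 0.85 after loess it was not. Ccna1, the cyclin A of germ cells, had no array with a signal well above background, in iPS F65 or in mix1.

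Aurkb, Aurora B, the kinase that corrects faulty attachments, read 7096, 8211 and 8128 in iPS F65 and 1463, 1642 and 1738 in mix1. It was 4.84-fold higher (2.28 ± 0.05, limma adjusted p = 9.43e-06) and 1.77 after loess. Plk1, polo-like kinase, which acts at centrosomes, kinetochores and the midbody, read 33879, 38938 and 38709 in iPS F65 and 16507, 19165 and 18551 in mix1. The groups did not overlap, but at 1.04 ± 0.02 it was only just past the 2-fold limit, was lost after loess (0.80), and its other probe read 0.43. Aurkc, the Aurora kinase best known from germ cells, had a ratio of 0.54 ± 0.02 and was not called.

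Cdk1, named Cdc2a on the array, is the kinase that cyclins A and B switch on. It read 78061, 92052 and 90334 in iPS F65 and 52120, 61036 and 61282 in mix1. The groups did not overlap, but the ratio of 0.58 ± 0.02 was under the limit (limma adjusted p = 5.11e-05), and its cyclins Ccna2 and Ccnb1 had larger ratios. Its promoter is shown because it holds more of both motifs than that of Ttk: the capitals mark ATTGG, the other strand of CCAAT, 3 times and TTTGAA 2 times (chr20:19265043-19265342 of GRCr8, plus strand).
Cdk1: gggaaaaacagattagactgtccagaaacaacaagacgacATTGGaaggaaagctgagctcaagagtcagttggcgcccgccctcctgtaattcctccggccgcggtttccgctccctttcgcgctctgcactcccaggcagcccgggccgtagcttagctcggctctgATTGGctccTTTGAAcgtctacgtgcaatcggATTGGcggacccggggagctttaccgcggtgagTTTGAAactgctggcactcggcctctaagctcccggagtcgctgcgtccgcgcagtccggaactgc
The ATTGG copies begin 210, 81 and 49 bases before the start and the TTTGAA copies 72 and 16 bases before it.

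Of the 5 genes of the chromosomal passenger complex and spindle assembly, 2 (40%) were higher, near the 30.9% of all genes, with a median of 0.77, and 2 were called after loess. Tpx2, which activates Aurora A and seeds microtubules near chromosomes, read 7428, 8511 and 8822 in iPS F65 and 2624, 2941 and 3073 in mix1. Ect2, the exchange factor that starts cytokinesis, read 33617, 39785 and 39293 in iPS F65 and 11969, 14091 and 13989 in mix1. Both were higher on every array, Tpx2 by 2.87-fold (1.52 ± 0.02) and Ect2 by 2.81-fold (1.49 ± 0.00), and Ect2 had a larger ratio on its dimmer probe (2.48).

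Incenp and Birc5, partners of Aurora B in the passenger complex, were not called, while Cdca8 (borealin), another partner that the name pattern does not reach, was higher (1.74, and 1.21 after loess). Incenp, the scaffold, read 7260, 8104 and 8092 in iPS F65 and 4474, 4904 and 5003 in mix1 (0.71 ± 0.02). Birc5, survivin, which takes the complex to the centromere, read 9372, 10464 and 10400 in iPS F65 and 6932, 7771 and 7703 in mix1, at 0.43 ± 0.00 and at 0.05 after loess. The ratio of Aurkb (2.28) was larger than those of these partners, a difference between probes that was not tested. Prc1, the bundler of the central spindle, had a ratio of 0.77 ± 0.03. The promoter of Birc5 is shown as that of a gene that holds 1 copy of each motif and was not called, with CCAAT beginning 213 and TTTGAA 8 bases before the start (chr10:103571896-103572195 of GRCr8, plus strand, motifs in capitals).
Birc5: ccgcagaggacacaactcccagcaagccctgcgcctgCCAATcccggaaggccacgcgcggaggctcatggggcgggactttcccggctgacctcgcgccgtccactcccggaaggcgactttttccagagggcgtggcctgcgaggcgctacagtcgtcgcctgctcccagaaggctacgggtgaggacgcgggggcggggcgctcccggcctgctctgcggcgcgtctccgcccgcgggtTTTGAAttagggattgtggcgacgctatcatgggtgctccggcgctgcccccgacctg

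Of the 11 genes of the anaphase-promoting complex and its regulators 5 (45.5%) were higher, against 30.9% of all genes, and none was called lower, at a median of 0.85. After loess 1 (9.09%) was higher, against 18.3% of all genes, and 1 lower. Fbxo5, which encodes Emi1, the inhibitor that holds the complex back in S and G2 phase, had the largest ratio of the 60 genes. It read 3455, 4287 and 4097 in iPS F65 and 364, 481 and 420 in mix1, 9.38-fold higher with no overlap (3.23 ± 0.07, limma adjusted p = 8.32e-06) and 2.52 after loess. Its promoter carries 3 copies of ATTGG in the last 92 bases before the start and TTCAAA just after it (chr1:44607732-44608031 of GRCr8, minus strand, printed in the direction of the gene with the motifs in capitals).
Fbxo5: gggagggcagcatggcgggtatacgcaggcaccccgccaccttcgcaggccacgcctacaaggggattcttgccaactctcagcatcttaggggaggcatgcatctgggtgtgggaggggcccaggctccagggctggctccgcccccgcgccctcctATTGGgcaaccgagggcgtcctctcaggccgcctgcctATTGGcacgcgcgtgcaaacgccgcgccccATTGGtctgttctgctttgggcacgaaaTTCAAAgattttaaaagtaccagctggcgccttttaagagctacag
Of the other genes of the complex, Anapc4, Anapc1, Anapc7 and Cdc16 were called higher. Anapc4 read 7118, 8158 and 8258 in iPS F65 and 3028, 3552 and 3484 in mix1 (1.23 ± 0.02), and Anapc1, the largest scaffold subunit, read 16748, 19239 and 19162 in iPS F65 and 7104, 8144 and 8485 in mix1 (1.22 ± 0.04). Anapc7 and Cdc16, subunits with tetratricopeptide repeats, stood at 1.17 and 1.03. None of these 4, whose ratios reached at most 1.23, was called after loess, where their ratios were 0.61 to 0.85.

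The remaining subunits Cdc23 (0.85), Anapc10 (0.66) and Cdc27 (0.61) were not called, and Anapc5 was slightly below 0 (-0.27). Anapc2, the cullin of the catalytic core, had the lowest ratio of the complex. It read 15142, 17600 and 17887 in iPS F65 and 28906, 33105 and 33554 in mix1, a ratio of -0.92 ± 0.01 that was not called, though with loess (-1.18) and with centred arrays (-1.17) it was. Cdc20, the activator that the checkpoint holds, read 29197, 33232 and 33415 in iPS F65 and 19032, 20771 and 21180 in mix1. The groups did not overlap, but at 0.65 ± 0.03 Cdc20 was not called.

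Separase and securin gave unequal ratios. Espl1, the protease separase that cuts cohesin, read 34423, 39362 and 38358 in iPS F65 and 9664, 10775 and 10770 in mix1, and was 3.59-fold higher (1.84 ± 0.02, limma adjusted p = 7.25e-06) and 1.55 after loess. Pttg1, securin, which binds and restrains separase, read 46023, 50940 and 50331 in iPS F65 and 32162, 35693 and 36031 in mix1. Its groups did not overlap either, but at 0.50 ± 0.02 it was not called.

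**Figure D3:**
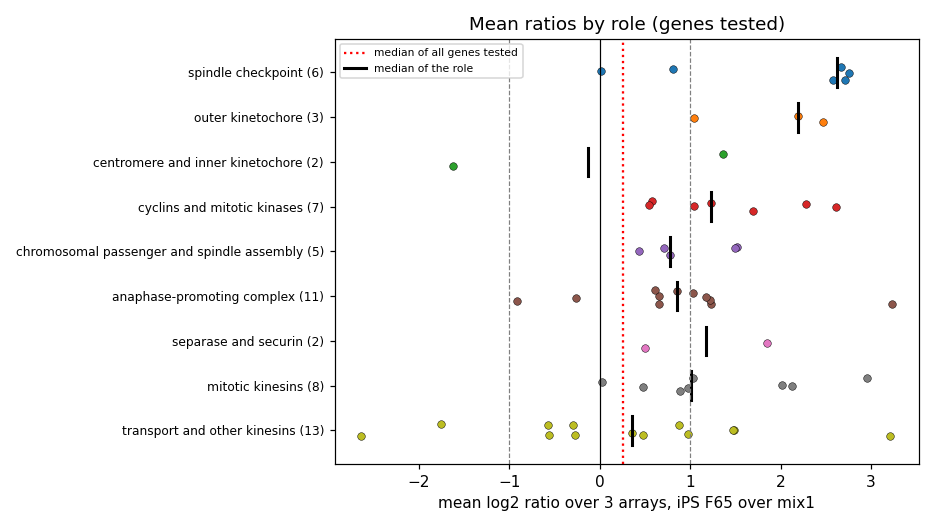
Mean log2 ratio of iPS F65 over mix1 (x axis) of the tested genes apart from 3 matched by name only, 1 point per gene, by role (y axis, number of genes in brackets), with the median of each role as a black bar. The medians of the checkpoint (2.62) and the outer kinetochore (2.19) lie farthest from the dotted median of all genes (0.25), and the transport kinesins (0.36) lie close to it.

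Among the kinesins, 7 of 21 tested were higher and 2 lower, a share of 33.3% higher that is near the 30.9% of all genes. After loess 3 (14.3%) were higher and 2 lower, against 18.3% higher and 26.1% lower of all genes. The 8 kinesins of the spindle had a median of 1.00, with 4 higher (2 after loess). The 4 include Kif14, which passed the filter only through iPS F65, and with probes above background in both channels 3 were higher. The 13 transport and other kinesins had a median of 0.36, with 3 higher and 2 lower (1 and 2 after loess). The 3 higher include Kif2, filed here although it dismantles microtubules like the spindle kinesin Kif2c. Kif15, a motor that helps keep the spindle bipolar, read 11819, 13243 and 13372 in iPS F65 and 1478, 1709 and 1778 in mix1. It was 7.75-fold higher (2.95 ± 0.04, limma adjusted p = 6.81e-06). Kif11, Eg5, which slides the poles apart, read 3799, 4431 and 4542 in iPS F65 and 855, 1044 and 1039 in mix1, 4.35-fold higher (2.12 ± 0.03). These 2 partly redundant motors of spindle bipolarity kept their call after loess, at 2.45 and 1.57.

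Kif14, a motor of cytokinesis, was dim. It read 127, 173 and 145 in iPS F65 and 19.2, 51.7 and 48.1 in mix1, where no array lifted it well above background. It passed the filter only through iPS F65, so it has a bound: it was at least 2.20-fold higher. That bound sets the mean of iPS F65 against the dimmest level above background in mix1. The levels are processed signals after Aquantile scaling, per channel, so the bound is open to dye bias. The fitted ratio of Kif14 (2.02 ± 0.61) had the largest SD of the 60 genes. After loess it was 0.81, a smaller difference than the bound. Kif2c, MCAK, which dismantles microtubules at centromeres, read 5000, 5871 and 5984 in iPS F65 and 2497, 2825 and 2938 in mix1. At 1.03 ± 0.03 it was just called and at 0.57 after loess it was not.

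The other spindle kinesins were not called and covered a range from 0.98 to 0.02. Kif22, the chromokinesin Kid, read 22313, 26358 and 25334 in iPS F65 and 11414, 13100 and 13010 in mix1 (0.98 ± 0.03), just under the limit. Kif4, now Kif4a, the other chromokinesin, read 2080, 2347 and 2378 in iPS F65 and 1133, 1249 and 1287 in mix1 (0.89 ± 0.02). In both the groups were apart by a little less than 2-fold. Kif23, a part of centralspindlin in cytokinesis, read 12038, 13752 and 13533 in iPS F65 and 8785, 9878 and 9684 in mix1 (0.47 ± 0.02). Kif20a, also of the central spindle, read 20473, 25499 and 25301 in iPS F65 and 20401, 25022 and 24820 in mix1. Its ranges overlapped almost fully, at a ratio of 0.02 ± 0.01 (limma adjusted p = 0.264), and after loess it was -0.23.

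Kif21a and Kif3c, both kinesins known from neurons, stood at opposite ends of the transport group. Kif21a, which slows microtubule growth at the cell cortex, read 2794, 3364 and 3286 in iPS F65 and 326, 348 and 344 in mix1, 9.25-fold higher (3.21 ± 0.09, limma adjusted p = 1.32e-05) and 2.46 after loess. Its dimmer probe, not well above background in mix1, was at least 6.37-fold higher by the processed signals. After loess that probe had a log2 ratio of 2.09, a smaller difference than the bound. Kif3c, a motor subunit that can pair with Kif3a, read 304, 373 and 352 in iPS F65 and 1981, 2285 and 2127 in mix1. It was 6.23-fold lower without overlap (-2.64 ± 0.06, limma adjusted p = 9.48e-06) and -2.80 after loess, while with local backgrounds as given it was -1.72 and not called. Its promoter, shown as that of the gene with the lowest ratio, holds neither motif (chr6:32086629-32086928 of GRCr8, plus strand).
Kif3c: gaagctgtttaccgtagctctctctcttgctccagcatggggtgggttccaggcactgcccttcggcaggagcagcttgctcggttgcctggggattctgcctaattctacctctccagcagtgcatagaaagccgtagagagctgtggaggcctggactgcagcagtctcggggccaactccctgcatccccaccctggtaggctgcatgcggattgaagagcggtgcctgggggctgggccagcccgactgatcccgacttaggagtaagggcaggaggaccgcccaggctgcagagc
The other subunits of that motor family did not share its ratio. Kif3a, a subunit of the motor that builds cilia, read 5385, 6415 and 6238 in iPS F65 and 2685, 3270 and 3209 in mix1 (0.98 ± 0.02), and Kif3b had a ratio of -0.57 ± 0.06. Neither was called.

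Kif1c, a motor of vesicle transport, was lower in iPS F65. It read 10237, 12164 and 11508 in iPS F65 and 34763, 40444 and 39206 in mix1, 3.38-fold lower (-1.76 ± 0.02, limma adjusted p = 7.38e-06) and -2.01 after loess. Kif2, now Kif2a, which like Kif2c dismantles microtubules, read 4123, 4744 and 4778 in iPS F65 and 1486, 1715 and 1719 in mix1 (1.47 ± 0.00, and 0.98 after loess). Its groups were far apart on the array, and the loess value fell just short of the limit. The dimmer probe of Kif2 had a ratio of 2.07 and kept its call after loess (1.52). Kif5b, the kinesin heavy chain found in most cells, read 48846, 59488 and 58136 in iPS F65 and 60396, 70690 and 70801 in mix1 (-0.28 ± 0.03). Kif5c, its form in neurons, read 72.7, 87.4 and 98.8 in iPS F65, above background on 2 of the 3 arrays, and 108, 124 and 150 in mix1 (-0.56 ± 0.05). Neither was called, and Kif5b's ranges in the groups came close to each other. The other probes of Kif5b read -0.01 and 0.14. Kif9 (0.87), Kif16b (0.47), Kif7 (0.36) and Kif13a (-0.30) were not called either. Of the kinesins of axons and testis, Kif5a, Kif1a and Kif2b were not well above background on any array in either channel.

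Kif1b, which carries mitochondria and synaptic vesicle precursors in different splice forms, was read by 3 probes with unlike ratios. Only the brightest was called. The probes are shown because the call depends on which is read. Their positions are on chromosome 5 of rn3, and by the array's own descriptions the first 2 were designed on the Kif1b mRNA and the third on a partial KIF1B mRNA record.
Kif1b, chr5:166260512-166260571: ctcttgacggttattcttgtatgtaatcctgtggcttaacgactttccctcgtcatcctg
Kif1b, chr5:166268792-166268851: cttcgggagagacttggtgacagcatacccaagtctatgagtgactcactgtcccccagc
Kif1b, chr5:166318944-166319003: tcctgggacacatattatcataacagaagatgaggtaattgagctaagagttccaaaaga
The first read 654, 800 and 752 in iPS F65 and 661, 743 and 698 in mix1 (0.07 ± 0.07). The second read 126, 114 and 177 in iPS F65 and 207, 198 and 244 in mix1 (-0.66 ± 0.18). In the first the groups overlapped, and in the second they did not but the ratio was under the limit. The third, the brightest and so the one that stands for the gene, read 1823, 2087 and 2206 in iPS F65 and 657, 744 and 792 in mix1 (1.48 ± 0.01). It was called higher, was not called after loess (0.96), and with the mean over the probes in its place the gene stood at 0.30 and was not called. Whether the probes report different splice forms was not tested.

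Probes of the same gene mostly gave the same call. Among the 20 genes read by several tested probes, 16 had 1 call throughout, 4 (Anapc10, Cdc27, Kif1b and Plk1) had probes on both sides of the 2-fold limit, and none had opposite calls. The size was less well fixed than the call. The 3 probes of Bub1b ran from 2.36 to 4.61, and those of Ccnb1 read 1.70 and 2.97. The Bub1b probe at 4.61 was not well above background in mix1. By the processed signals it was at least 5.64-fold higher, while its log2 ratio after loess was 2.16, a smaller difference than that bound. Ccna2 read 2.61 and 3.50, Cenpc1 1.36 and 1.94, and Ttk 2.58 and 2.46. Where a gene had 2 tested probes, the dimmer probe mostly gave the larger ratio. This held in Ccna2, Ccnb1, Ect2, Cenpc1, Anapc1, Anapc10, Cdc16, Cdc27, Kif16b, Kif2 and Kif21a. In Plk1, Kif9, Ttk, Kif11 and Cenpf the dimmer probe gave the smaller ratio. In each gene named here the probes differed by more than the SD of either over the arrays.

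**Figure D4:**
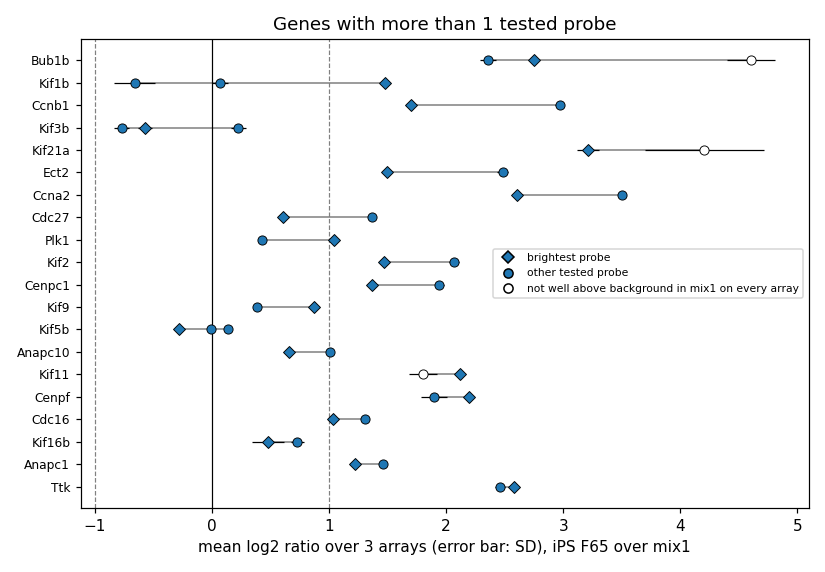
Mean log2 ratio of iPS F65 over mix1 for each tested probe (x axis, error bars SD over 3 arrays) of the 20 genes with more than 1 such probe (y axis), with the brightest probe as a diamond. The probes of Kif1b span 2.14 and lie on both sides of 0, while those of Ttk differ by 0.12.

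The pattern also caught 3 genes that share a name with the spindle genes but act elsewhere or only bind them, and they spread widely. Pttg1ip, a membrane protein that binds securin, read 14612, 17054 and 17269 in iPS F65 and 76804, 91484 and 91254 in mix1. It was 5.30-fold lower (-2.41 ± 0.02, limma adjusted p = 5.80e-06), while Pttg1 itself was not called. Cenpj, a builder of centrioles, had a ratio of 1.08 ± 0.01 (0.65 after loess), with 6878, 8169 and 8009 in iPS F65 and 3271, 3828 and 3791 in mix1. Aurkaip1, which binds Aurora A, had a ratio of 0.20 ± 0.01.

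The array files use gene names of their time, and the pattern missed genes that now carry a matching symbol. Through RefSeq, 24 such genes with 28 probes were found, and this step was added after the data had been seen. Tests were possible for 23, and 16 were higher and 1 was lower, at a median ratio of 1.65 (12 and 1 after loess), beside 30.9% higher and 24.5% lower of all genes (18.3% and 26.1% after loess). With them added, 45 genes were higher and 5 lower. These counts include Kif14 and Kif26b, which each passed the filter only through the channel where they were higher. Several parts of the inner kinetochore were among them. Cenpu, a member of the constitutive centromere network, read 6681, 8150 and 8704 in iPS F65 and 688, 880 and 952 in mix1 (3.23 ± 0.05). Cenpa, the histone H3 variant that marks the centromere, read 4129, 4830 and 4877 in iPS F65 and 1299, 1559 and 1552 in mix1 (1.65 ± 0.02). Both were called higher, and so were Cenpq (2.29), Cenpn (1.85), Cenpt (1.70), Cenpk (1.33), Cenpl (1.14) and Cenpi (1.06), while Cenpm (0.35) was not called. After loess Cenpu, Cenpq, Cenpn, Cenpt and Cenpa kept their calls.

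The Ndc80 complex, the rod that grips microtubules, was uneven. Spc25 had a ratio of 1.90 and Nuf2, filed as Cdca1, had 1.08, with 12010, 13837 and 13580 in iPS F65 and 5725, 6504 and 6456 in mix1. Ndc80 itself, filed as Kntc2, read 6090, 7031 and 7005 in iPS F65 and 3578, 4158 and 4170 in mix1 (0.76 ± 0.01), and Spc24 stood at -0.25. Spc25 and Nuf2 were called higher, Ndc80 and Spc24 were not, and only Spc25 was called after loess (1.55). Zwilch, a partner of Zw10, was higher at 2.67 (2.11 after loess). Aurora A, filed as Stk6, read 8925, 10428 and 10588 in iPS F65 and 2276, 2641 and 2785 in mix1, 3.89-fold higher (1.96 ± 0.03, limma adjusted p = 7.70e-06) and 1.49 after loess. Kif18a, which shortens microtubules at the plus end, was higher at 3.00 and Kif20b at 1.92. Kif26b was the lower gene. It was not well above background in iPS F65, with 42.4, 43.3 and 46.0 there and 531, 609 and 616 in mix1. It therefore passed the filter only through mix1. By the processed signals it was at least 8.89-fold lower. Its log2 ratio after loess was -2.60, a smaller difference than that bound.

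**Figure D5:**
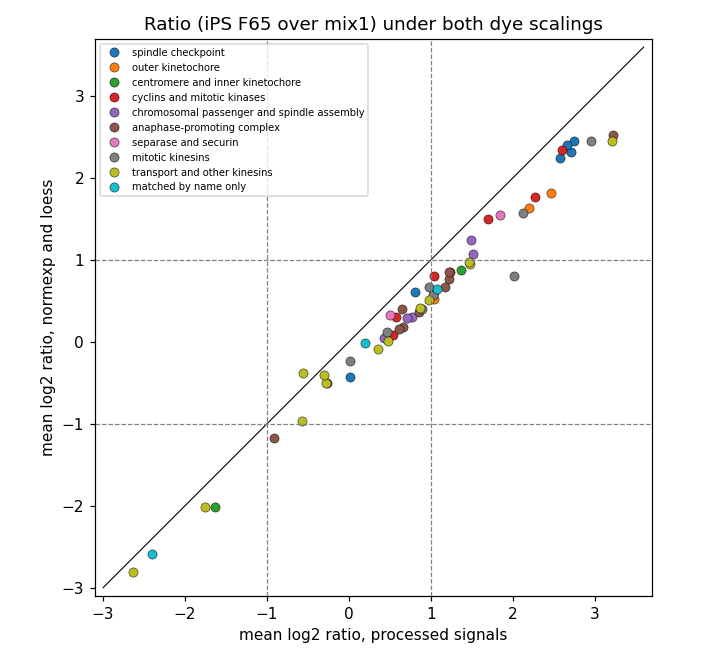
Mean log2 ratio of iPS F65 over mix1 of the 60 tested genes from the processed signals (x axis) and after normexp and loess (y axis), coloured by role, with the line of equal values and the 2-fold limits. Nearly all points lie below the line, by a median of 0.41, and the genes that lose their call lie right of the limit on the x axis and below it on the y axis.

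Outside the name pattern, 65 other genes of mitosis were read as a list, of which 60 were tested. In iPS F65 39 of these (65%) were higher and 0 lower, at a median ratio of 1.27 (24 and 0 after loess, at a median of 0.85). Over all genes tested 30.9% were higher and 24.5% lower, and after loess 18.3% and 26.1%. These calls are limma's with the 2-fold limit. Without the limit 5 genes of the list had a ratio below 0, each at an adjusted p under 0.05, and with centred arrays 30 were higher and 0 lower. Sgol2, shugoshin 2, which protects cohesin at the centromere, was at least 13.1-fold higher by the processed signals. Its log2 ratio after loess was 2.47, a smaller difference than that bound. It read 744, 963 and 933 in iPS F65 and 33.3, 60.2 and 65.3 in mix1, where it was not well above background. Sgol2 is counted in the 39 though it passed the filter only through iPS F65. Nusap1, a binder of spindle microtubules, read 846, 1002 and 996 in iPS F65 and 87.6, 101 and 104 in mix1 (3.28 ± 0.03), and Ska3, of the complex that holds kinetochores to microtubule ends, read 1827, 2045 and 2159 in iPS F65 and 202, 199 and 229 in mix1 (3.26 ± 0.10). Both genes were apart on every array, Nusap1 by 9.71-fold and Ska3 by 9.55-fold on average.

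Mki67, Top2a, Mybl2 and Foxm1 were among the genes called higher. Mki67, the antigen Ki-67 of dividing cells, had a ratio of 1.75 ± 0.01. Top2a, topoisomerase II alpha, stood at 2.02 ± 0.03, Mybl2, which directs mitotic genes, at 2.00 ± 0.03, and Foxm1, another activator of them, at 1.43 ± 0.03. All 4 remained called after loess, at 1.05 to 1.70. Ube2c (0.54), a ubiquitin-conjugating enzyme of the anaphase-promoting complex, was not called. E2f1 (-0.16), Hmmr (-0.25), Numa1 (-0.35) and Fzr1 (-0.49), the last an activator of the anaphase-promoting complex after mitosis, had ratios below 0 and were not called. The ratio of Mki67 lay below those of the 4 called checkpoint genes (2.58 to 2.75) and above that of Cdk1 (0.58), and the differences between these probes were not tested.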

How the data were processed

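RNA of 3 iPS F65 samples (Cy3) and of mix1 (Cy5) was measured on 3 arrays of 45018 spots, 43379 of them for genes. The deposited scanner output came from Agilent Feature Extraction 9.5.3.1, per the file headers. Per the file headers, its mean and background intensity values carry no normalization, while the processed intensity values were background-subtracted and dye-normalized (linear and LOWESS) by that software. In the series matrix, the deposited log2 values equalled the log2 ratio of processed signals, Cy3 over Cy5, to within 3.1e-06, with column medians of 0.00, -0.01 and -0.06, so their scale is log2, they carry no further centring, and they run as iPS F65 over mix1. The array names build rn3 for its probes.

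Control spots and outlier flags (204 to 213 spots per array) were left out, and repeat spots were averaged by probe. Tested probes were those well above background on all 3 arrays in either channel, and the brightest tested probe stood for a gene. The mean ratio of each gene was set against 0 by limma 3.58.1 in R 4.3.3 (lmFit and eBayes), adjusted by Benjamini-Hochberg over 21805 genes, and called at an adjusted p under 0.05 with at least 2-fold. The precision is limited by the 3 arrays. Alternatives used normexp (offset 50) with loess, centred arrays, the series matrix values, other probe filters, limma's treat and each array left out.

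Any of the genes found by the name pattern could be named. Values on every array were given for the called genes with the 3 largest ratios in the main direction of each role and the 2 largest in the other, and for a list of main mitotic regulators. From the 65 other mitotic genes, the 3 with the largest ratios, Mki67, Top2a, Foxm1 and Mybl2 were taken, while Cdca8, Ube2c, E2f1, Hmmr, Numa1 and Fzr1 were named after their values were seen, as were most genes under older names. The genes, roles and lists were chosen with earlier results of these data known. All 69 genes were matched to RefSeq, which also gave the promoter windows. On simulated ratios for 21828 genes, 85% of genes changed by a log2 ratio of 1.5 and 98% of those changed by 3 were recovered, and 1 unchanged gene was called. With normexp and loess the shares were the same and 2 unchanged genes were called. Only 100 genes were changed by each size, and the simulated processed ratios held no dye bias. The simulation therefore cannot tell how many calls are false in these data.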

Additional observations from a re-analysis of the deposited data

How the results depend on the processing

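Background correction and dye scaling, changed together, moved how many genes passed the 2-fold limit. With normexp, uneven backgrounds replaced, and loess, 3980 of all genes were higher, and of the spindle and kinesin genes 16 were higher, with 1 of the anaphase-promoting complex, 0 of the centromere, 3 cyclins and kinases, 2 mitotic kinesins and 1 transport kinesin. With backgrounds as given, 2355 of all genes were higher and 2081 lower, and of the spindle and kinesin genes 20 were higher and 3 lower. By role, 2 of the complex, 0 of the centromere and 2 mitotic kinesins were then higher, and 1 transport kinesin was lower. With centred arrays 1 gene of the complex and 3 cyclins and kinases were higher. Keeping probes above background in both channels left 3234 of all genes lower and 28 spindle and kinesin genes higher, without Kif14. No filter gave 7 lower spindle and kinesin genes, 4 of them transport kinesins, since dim probes then entered. Genes under older names, added after seeing the data, brought the higher genes to 45.

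Leaving out 1 array gave 29 higher and 4 lower each time, against 6686 to 6717 higher and 5273 to 5315 lower of all genes. Of the 60 ratios, none turned in sign with a call. Normexp and loess with uneven backgrounds replaced cost 13 calls and added 1, the same with backgrounds as given cost 10, centring cost 9 and added 1, treat cost 4 (Cdc16, Kif2c, Plk1 and Zw10) and the mean over probes 2 (Kif1b and Plk1). The series matrix values changed none. The cause of the moves between background corrections was not tested. Signal over background limits Kif14, Kif5c and the 9 genes not tested. Each array gave its own ratio of iPS F65 over mix1, so the test compared the channels within arrays. With mix1 as 1 sample, no further pairing was possible. A slide block was not run, since all arrays shared 1 slide.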
